A study of Homo sapiens with 12 samples.

Results

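A set of 10 genes of branched-chain amino acid (BCAA) catabolism was followed in human adipocytes with and without linc-ADAIN knockdown (KD): BCAT1, BCAT2, BCKDHA, BCKDHB, DBT, DLD, IVD, MCCC1, MCCC2 and PCCA. They were chosen by name, as enzymes or enzyme subunits of the pathway, and all 10 were found among the 28901 gene names measured. RNA-seq had been performed on ASC52telo hTERT cells, a line of human adipose stromal cells immortalized with telomerase, at day 14 of differentiation into adipocytes. All cells carried a lentiviral shRNA vector with the green fluorescent protein ZsGreen and were sorted for it. They were first differentiated in medium with insulin, dexamethasone, isobutylmethylxanthine, rosiglitazone, pantothenate and biotin. Up to day 14 they were then kept in maintenance medium with insulin, dexamethasone, pantothenate and biotin only. Biotin, the cofactor of both carboxylases described here, was thus supplied to every group. The 4 groups had 3 libraries each: scramble control (genotype given as WT, Scramble shRNA), scramble control with lipopolysaccharide (LPS, a component of the outer membrane of Gram-negative bacteria) at 100 ng/mL for 4 h, linc-ADAIN KD (genotype given as Linc-ADAIN knockdown, linc-ADAIN shRNA), and linc-ADAIN KD with the same LPS exposure. The labels name 1 cell line and do not give more than 1 shRNA per arm, and nothing in them says that the 3 libraries of a group came from separate cultures. The RNA-seq of KD and scramble control is described as a single experiment with replicate libraries, with a single shRNA sequence for each arm. Whether the libraries with LPS belong to that experiment is not stated. The p-values therefore measure only the spread between these libraries, which may be technical. They cannot show whether a difference would recur in another experiment or with another shRNA. Words such as raised and fell describe differences between these groups of libraries. The targeted transcript, linc-ADAIN, was not analysed here, so the KD labels were not checked against their target and every direction given for KD rests on the labels of the libraries.

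Leucine, isoleucine and valine are broken down in mitochondria, and fat is one of the tissues in which this pathway is active and rises during adipocyte differentiation. Aminotransferases (BCAT1 in the cytosol, BCAT2 in mitochondria) first remove the amino group. The branched-chain α-keto acid dehydrogenase (BCKDH) complex, built of an E1 enzyme with α and β subunits (BCKDHA, BCKDHB), an E2 core (DBT) and an E3 subunit shared with other complexes (DLD), then commits the carbon skeleton to oxidation. Isovaleryl-CoA dehydrogenase (IVD) and 3-methylcrotonyl-CoA carboxylase (MCCC1, MCCC2) act on the leucine branch, and propionyl-CoA carboxylase (PCCA, PCCB) acts on the propionyl-CoA that isoleucine and valine leave.

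Promoter windows are given for the 4 members whose KD difference passed the test both with and without LPS, BCAT1, BCKDHB, MCCC1 and PCCA. The windows run from 250 bases before the start site of the gene to 30 bases after it in RefSeq on GRCh38.p14, and 9 of the 10 members had an entry. BCAT1 is on the minus strand (chr12:24949072-24949351), as is MCCC1 (chr3:183099467-183099746), and BCKDHB (chr6:80106421-80106700) and PCCA (chr13:100088843-100089122) are on the plus strand. Each sequence reads 5′ to 3′ on the strand of the gene, and capitals mark matches, on either strand, to 5 motifs that are spelled out with their shares after the sequences. No matches overlap in these 4 windows. The starts that RefSeq gives for BCKDHB, MCCC1 and PCCA lie inside the spans of these genes in GENCODE, farthest for MCCC1.
BCAT1: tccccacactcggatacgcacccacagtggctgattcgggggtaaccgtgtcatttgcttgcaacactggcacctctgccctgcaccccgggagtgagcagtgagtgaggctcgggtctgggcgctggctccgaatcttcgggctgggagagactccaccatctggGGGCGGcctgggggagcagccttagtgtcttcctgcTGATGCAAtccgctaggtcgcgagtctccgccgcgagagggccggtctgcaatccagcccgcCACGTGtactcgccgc
BCKDHB: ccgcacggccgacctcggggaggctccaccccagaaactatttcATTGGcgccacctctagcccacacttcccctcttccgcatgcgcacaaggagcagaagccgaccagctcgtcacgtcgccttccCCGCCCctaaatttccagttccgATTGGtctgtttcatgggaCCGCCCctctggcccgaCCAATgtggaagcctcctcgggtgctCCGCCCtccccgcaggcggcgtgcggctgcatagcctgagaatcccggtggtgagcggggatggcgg
MCCC1: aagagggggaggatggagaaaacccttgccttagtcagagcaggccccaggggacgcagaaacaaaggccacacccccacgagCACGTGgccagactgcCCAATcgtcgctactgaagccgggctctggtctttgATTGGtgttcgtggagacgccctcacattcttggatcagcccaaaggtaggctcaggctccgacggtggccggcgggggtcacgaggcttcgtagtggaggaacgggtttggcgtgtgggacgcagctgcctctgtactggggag
PCCA: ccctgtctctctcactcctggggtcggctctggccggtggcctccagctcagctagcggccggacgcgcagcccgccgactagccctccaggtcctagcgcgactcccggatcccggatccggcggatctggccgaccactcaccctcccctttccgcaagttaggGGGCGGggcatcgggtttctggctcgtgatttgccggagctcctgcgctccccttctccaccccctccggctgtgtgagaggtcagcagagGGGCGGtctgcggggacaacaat

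BCAT1 was the 1 member with the composite motif of ATF4 and C/EBP (TGATGNAA), 48 bases before its start, and it also held an E-box that began at base 15, counting the start site as base 1, and a GC box 84 bases before it. The composite motif was in 3.46% of 34796 promoter windows. E-boxes (CACGTG) were in 3 of the 9 members (BCAT1, MCCC1 and MCCC2) and in 6.89% of all windows. The CCAAT motif was in 7 of 9 members against 33.7% of all windows, with 3 matches in BCKDHB and 2 in MCCC1, and it was not among the letters of the windows of BCAT1 and PCCA. GC boxes (GGGCGG) were in 6 of 9 members against 15320 of the 34796 windows, with 3 in BCKDHB and 2 in PCCA. The core of the cAMP response element (TGACGT) was in 1 of 9 members, DLD, against 7.75%. BCAT1, which rose in KD, therefore shared the E-box with MCCC1, which fell, and no motif of the 5 was in all 3 members that fell. A match is a description of the letters and not a binding site, the motifs were chosen after the expression values were known, and nothing in these data measured binding.

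The values were estimated counts for each gene, which kallisto had obtained by matching reads to annotated transcripts. Counts on named genes totalled 28.4 to 53.8 M (units of 1e6) per library, and the correlation of log2 CPM (counts per 1e6) between libraries of a group was 0.960 to 0.983. CPM here is after TMM scaling, and edgeR's quasi-likelihood test was run on all genes, whose p-values were adjusted by Benjamini-Hochberg and called changed at an adjusted p under 0.05. Markers were checked against the label of adipocytes: ADIPOQ, FABP4, PLIN1, PLIN4, CIDEC, LIPE and PPARG were expressed in every group, whereas lipoprotein lipase (LPL) had 0 to 82 counts and leptin (LEP) 0 to 21 counts per library. The summed level of the 10 adipocyte markers was 3200 to 4427 CPM in scramble libraries and 3702 to 4288 CPM in scramble control with LPS, but 641.9 to 1880 CPM in KD and 519.4 to 1206 CPM in KD with LPS. In the libraries labelled KD, 7 of the 10 were called lower without LPS and 8 of 10 with LPS. Over all genes, 15.1% were lower without LPS and 14.2% with LPS. Whether the labels of the 2 arms are in the right order was not tested. In bulk samples, fewer cells of a type and less RNA per cell cannot be told apart. Of 9 stromal markers, 4 were higher and 3 lower in KD without LPS, with summed levels of 5085 to 5829 CPM in scramble libraries and 5596 to 6619 CPM in KD, and of 4927 to 5612 and 5735 to 6484 CPM with LPS. Macrophage AIF1 was at 0 counts in every library and PTPRC at 0 to 12, and the endothelial CDH5 at 0 to 3. Summed macrophage markers, nearly all CD68, were 52.85 to 58.74 CPM in scramble libraries and 31.13 to 36.96 CPM in KD, and 56.17 to 68.89 and 26.17 to 31.77 CPM with LPS. Summed endothelial markers were 23.58 to 27.09 CPM in scramble libraries and 11.8 to 12.33 CPM in KD, and 15.32 to 17.03 and 8.453 to 13.18 CPM with LPS. These sums hide opposite changes: with LPS, CD14 and endothelial KDR were higher in KD. Their log2 fold changes were 2.69 (adjusted p = 0.0014) and 4.89 (adjusted p = 3.4e-05) by edgeR's test. In that comparison 1 macrophage and 3 endothelial markers were lower, beside 12.7% of all genes higher and 14.2% lower. The part of any of these markers in the results was not tested.

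In scramble control the members lay within 1 order of magnitude except DBT, when levels were compared per kilobase (kb) of the canonical transcript. DLD was highest at 17.6 ± 1.54 CPM per kb, followed by MCCC2 at 13.9 ± 0.204 CPM per kb (SD, n = 3), and the libraries of these genes did not overlap. BCAT2 (9.72 ± 1.41 CPM per kb) and MCCC1 (8.94 ± 1.00 CPM per kb) overlapped. PCCA (6.48 ± 0.308 CPM per kb), BCKDHA (5.67 ± 1.52), BCAT1 (5.67 ± 0.262), BCKDHB (5.28 ± 0.481) and IVD (5.15 ± 0.330) formed a group in which each gene overlapped its neighbour. DBT, the E2 core, was lowest on this scale at 0.988 ± 0.148 CPM per kb and lay apart from all others. That rank rests on the length of its canonical transcript, 10799 bases, and the isoforms expressed were not examined. In CPM, the means of DBT (10.7) and BCKDHA (9.88) were close and their scramble libraries overlapped. The plot of members by library shows the level of each gene in CPM in all 12 libraries.

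**Figure D1:**
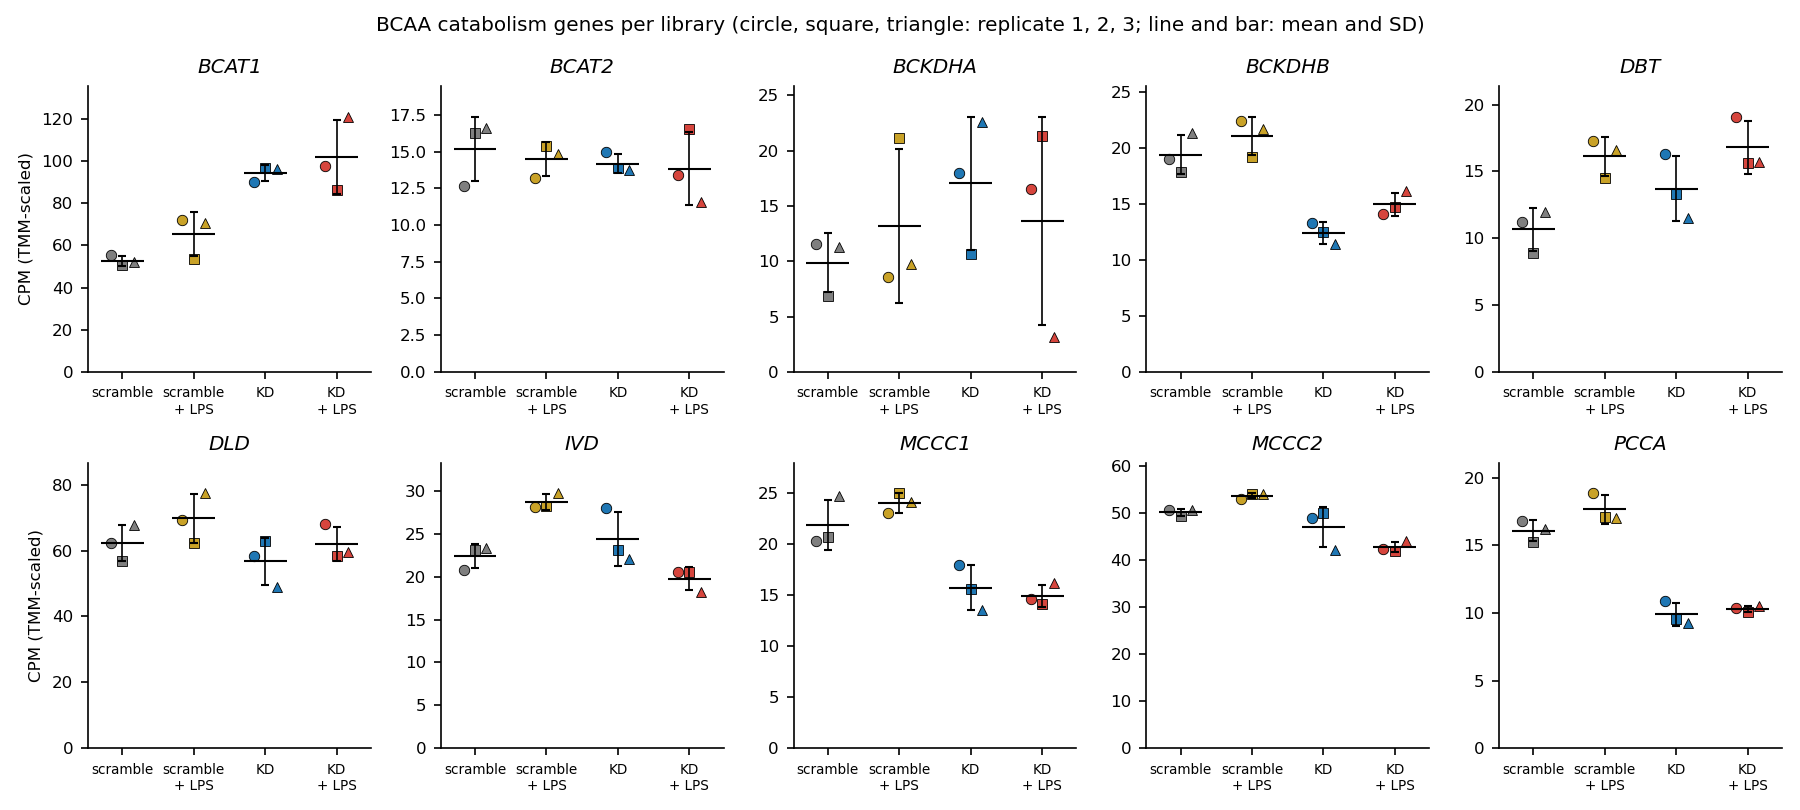
Level of each of the 10 members in CPM (y axis, from 0, a different scale in each panel) in the 3 libraries of each group (points, x axis), with line and bar for mean and SD. In the BCAT1 panel all KD libraries (86.5 to 121 CPM) lie above all scramble libraries (50.7 to 72.2 CPM), in the PCCA, MCCC1 and BCKDHB panels they lie below, and in the BCKDHA panel the groups overlap.

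Without LPS, linc-ADAIN KD raised 2 members, BCAT1 and BCKDHA, and lowered 3, BCKDHB, MCCC1 and PCCA, and none of the 5 reached a 2-fold difference. Among all 16217 genes tested, 12.1% were higher, 15.1% lower and 7.77% changed at least 2-fold, so that calls were more frequent among the 10 members than over all genes while 2-fold changes were not, a description of 10 genes with no test. The median log2 fold change of the 10 members was -0.09, against 0.02 over all genes. With LPS, 1 member was higher (BCAT1) and 5 were lower (BCKDHB, IVD, MCCC1, MCCC2 and PCCA), again with none at 2-fold, against 12.7% higher, 14.2% lower and 8.48% at 2-fold among 15981 genes, and the excess over the background was then on the side of lower members. The median of the members was then -0.25, against 0.03 over all genes. Scaling by library size alone moved the median of all genes by 0.105 (log2) without LPS and changed the share of calls that were higher from 44.5% to 61.4% without LPS and from 47.2% to 59.2% with LPS. Relative to the median of all genes, the changes without LPS were then 0.82 for BCAT1, -0.67 for BCKDHB, -0.50 for MCCC1 and -0.72 for PCCA on the log2 scale, and each kept its direction in absolute terms. The 2 comparisons of KD with scramble control share no libraries, and the LPS comparisons use the same 12 libraries again.

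**Figure D2:**
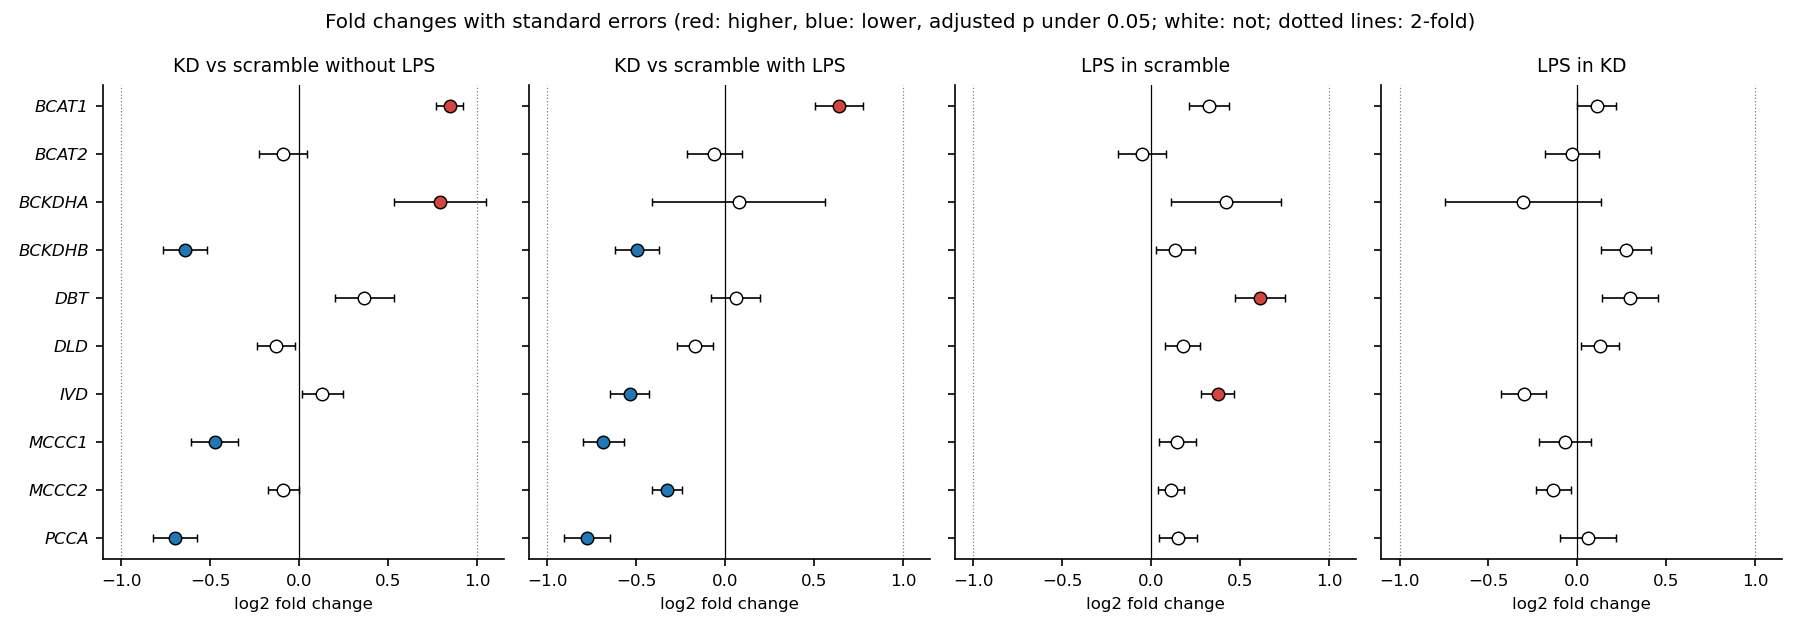
Log2 fold change of each member (x axis) with its standard error (bars) in the 4 comparisons, with dotted lines at 2-fold. Red marks members higher and blue members lower at an adjusted p under 0.05. BCAT1 is red and BCKDHB, MCCC1 and PCCA are blue in both panels of KD against scramble, and no point in the panel of LPS in KD is coloured.

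BCAT1, the cytosolic aminotransferase (chromosome 12, 24810024 to 24949101 on GRCh38), had 55.5, 50.7 and 52.2 CPM in the scramble libraries and 90.2, 97.0 and 96.2 CPM in the KD libraries. With LPS the values were 72.2, 53.4 and 70.6 CPM in scramble libraries and 97.9, 86.5 and 121 CPM in KD. Every KD library was above every scramble library, in both conditions. The log2 fold change of KD was 0.84 without LPS (standard error 0.077, adjusted p = 7.9e-06 by edgeR's test), a 1.80-fold rise from 52.8 ± 2.45 to 94.5 ± 3.72 CPM (SD, n = 3). With LPS it was 0.64 (standard error 0.13, adjusted p = 0.0030), from 65.4 ± 10.4 to 102 ± 17.7 CPM. These calls were kept in all 14 alternative fits of each comparison. BCAT2, the mitochondrial aminotransferase (chromosome 19, 48795062 to 48811029), had 15.2 ± 2.21 CPM in scramble libraries and 14.2 ± 0.662 CPM in KD, and 14.5 ± 1.14 and 13.9 ± 2.49 CPM with LPS. Its groups overlapped in both comparisons (log2 fold changes of -0.09 and -0.06, adjusted p = 0.66 and 0.83).

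The ratio of BCAT1 to BCAT2 counts within a library compared the 2 aminotransferases without scaling. It was 3.50 (geometric mean, range 3.11 to 4.39) in scramble control and 6.66 (6.03 to 7.01) in KD, and 4.48 (3.46 to 5.46) and 7.36 (5.24 to 10.4) with LPS. Over both conditions KD raised the log2 ratio by 0.82 (exact permutation test within LPS strata, 400 arrangements, two-sided p = 0.01, adjusted p = 0.02 over 10 relations). The 2 genes differ in transcript length, so the ratio itself is not one of molecules. The smallest two-sided p that these arrangements allow is 0.005. Of genes outside the lists, FBXL4, BET1 and GGH had the patterns most like BCAT1 over the 12 libraries, with Pearson r of log2 CPM of 0.976, 0.975 and 0.973 among 11744 genes. FBXL4 was at 22.3 ± 1.16 CPM in scramble libraries and 48.3 ± 0.565 CPM in KD, and 26.7 ± 4.74 and 62.6 ± 13.4 CPM with LPS (SD, n = 3). The 12 points share their group structure, so r is given as a description.

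The 2 subunits of the E1 enzyme of the BCKDH complex went opposite ways without LPS, and of the 2 calls that of BCKDHA was lost in several alternative fits. BCKDHB, the β subunit (chromosome 6, 80106647 to 80346270), had 19.0, 17.8 and 21.3 CPM in scramble libraries and 13.3, 12.4 and 11.4 CPM in KD. With LPS it had 22.4, 19.1 and 21.7 CPM in scramble libraries and 14.1, 14.7 and 16.1 CPM in KD. The KD libraries lay below the scramble libraries in both conditions, and BCKDHB fell by 0.64 on the log2 scale without LPS (standard error 0.12, adjusted p = 0.0020 by edgeR's test) and by 0.50 with LPS (standard error 0.12, adjusted p = 0.0088). BCKDHA, the α subunit (chromosome 19, 41397808 to 41425002), had 11.5, 6.83 and 11.3 CPM in scramble libraries and 18.0, 10.6 and 22.6 CPM in KD. Its groups overlapped, with a log2 difference of 0.79 (standard error 0.26, adjusted p = 0.041). That call was lost without scramble replicate 2 (adjusted p = 0.15), scramble replicate 3 (0.069), KD replicate 1 (0.097) or KD replicate 3 (0.17), and in the fit of all 12 libraries (0.24).

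With LPS, BCKDHA had 8.54, 21.2 and 9.75 CPM in scramble libraries and 16.5, 21.3 and 3.13 CPM in KD, and the library at 3.13 CPM held 89 counts against 583 and 992 in the others of its group. The log2 fold change with LPS was 0.07 with a standard error of 0.49. BCKDHA shares 1660 exon bases on the same strand with a readthrough gene (ENSG00000255730 in GENCODE release 44) that is not listed under that name in the table, so how the estimated counts were split between them is not known and the values of BCKDHA are uncertain. The ratio of BCKDHA to BCKDHB ranged from 0.383 to 0.606 in scramble control and from 0.854 to 1.98 in KD, but from 0.382 to 1.11 and from 0.194 to 1.45 with LPS. Over both conditions the difference of the log2 ratio was 0.83 (exact permutation test, p = 0.17, adjusted p = 0.28), and without KD with LPS replicate 3 it was 1.29 (adjusted p = 0.025).

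DBT, the E2 core of the complex (chromosome 1, 100186919 to 100249834), passed the test with LPS in scramble control and in neither KD comparison. It had 11.2, 8.88 and 11.9 CPM in scramble libraries and 17.3, 14.5 and 16.6 CPM after LPS, every LPS library above every library without it, a log2 rise of 0.61 (standard error 0.14, adjusted p = 0.014 by edgeR's test). The call was lost without scramble replicate 2 (adjusted p = 0.067) or scramble with LPS replicate 3 (0.055). In KD the values were 16.3, 13.3 and 11.5 CPM without LPS and 19.1, 15.6 and 15.7 CPM with it, overlapping, with a log2 difference of 0.30 (standard error 0.16, adjusted p = 0.29), and the difference between the 2 arms did not pass the test (interaction -0.30, standard error 0.22, adjusted p = 0.68). KD against scramble without LPS gave a log2 difference of 0.36 (standard error 0.17, adjusted p = 0.13), called only with scaling by library size (adjusted p = 0.048). DLD, the E3 subunit that BCKDH shares with pyruvate and 2-oxoglutarate dehydrogenase (chromosome 7, 107891162 to 107931730), was at 62.4 ± 5.43 CPM in scramble control, 69.7 ± 7.52 with LPS, 56.7 ± 7.21 in KD and 62.0 ± 5.25 in KD with LPS. Its log2 fold changes in the 4 comparisons lay between -0.17 and 0.17 and passed no test. DLD shares 300 exon bases with LAMB1 on the opposite strand, and the strand setting of the counting is not given in the sources used here.

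A pair of regulators sets the activity of the BCKDH complex, BCKDK, the kinase that inactivates E1, and PPM1K, the phosphatase that reactivates it. PPM1K was called in KD without LPS and BCKDK after LPS in scramble control. PPM1K had 4.10, 5.15 and 5.80 CPM in scramble libraries and 1.90, 3.10 and 3.21 CPM in KD, with no overlap, and fell by 0.86 on the log2 scale (standard error 0.26, adjusted p = 0.026 by edgeR's test). These are 216 to 271 counts in scramble control and 66 to 167 in KD, and the call was lost without scramble replicate 2 (adjusted p = 0.085), scramble replicate 3 (0.095) or KD replicate 1 (0.067). With LPS the values were 4.40, 5.55 and 7.24 CPM in scramble libraries and 3.39, 4.43 and 2.25 CPM in KD, which overlapped (log2 fold change -0.76, adjusted p = 0.071). BCKDK had 48.7, 51.4 and 50.5 CPM in scramble libraries and 35.1, 39.7 and 35.3 CPM after LPS, a fall by 0.44 on the log2 scale (standard error 0.084, adjusted p = 0.0045). In KD it had 38.3, 38.4 and 48.7 CPM without LPS and 32.0, 36.3 and 28.6 CPM with it (log2 fold change -0.37, standard error 0.12, adjusted p = 0.072), and 5 of 14 alternative fits called it. Between KD and scramble control BCKDK was at -0.26 without LPS (unadjusted p = 0.026, adjusted p = 0.082), which was called without KD replicate 3 (-0.38, adjusted p = 0.0087), and at -0.18 with LPS (adjusted p = 0.26).

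The ratio of BCKDK to PPM1K moved with both factors. It was 10.1 (geometric mean, range 8.71 to 11.9) in scramble control and 15.6 (12.4 to 20.1) in KD, and 6.53 (4.88 to 7.98) and 9.94 (8.19 to 12.7) with LPS. KD raised the log2 ratio by 0.62 (exact permutation test, 400 arrangements, p = 0.005, adjusted p = 0.017), and LPS lowered it (difference of -0.64, p = 0.01, adjusted p = 0.02). These are mRNA ratios, and the phosphorylation of the complex was not measured in these libraries.

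**Figure D3:**
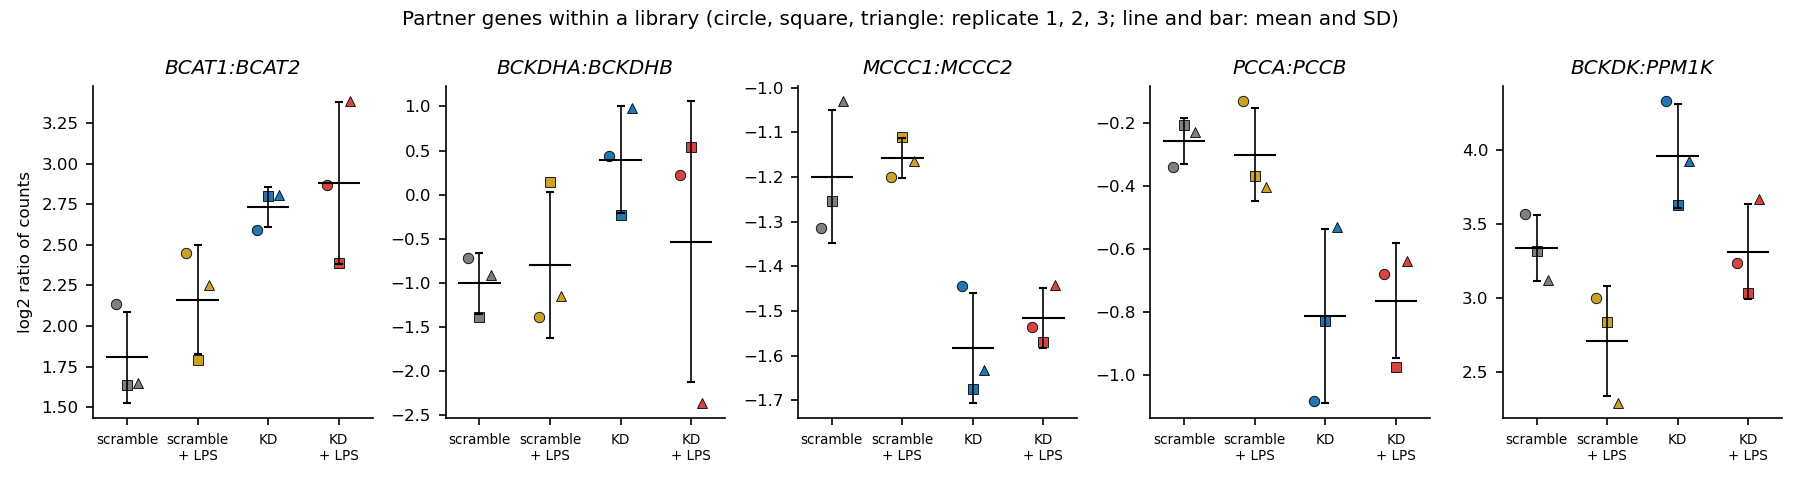
Log2 ratio of counts of partner genes within a library (y axis, a different scale in each panel) by group (x axis), with circle, square and triangle for replicates 1, 2 and 3 and line and bar for mean and SD. The means of MCCC1:MCCC2 and PCCA:PCCB are lower and that of BCAT1:BCAT2 is higher in the KD groups, the BCKDHA:BCKDHB groups with LPS overlap widely, and the mean of BCKDK:PPM1K is higher with KD and lower with LPS.

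IVD, which oxidizes isovaleryl-CoA on the leucine branch (chromosome 15, 40405485 to 40435947), was the 1 member whose interaction of KD with LPS passed the test. Scramble control had 20.7, 23.1 and 23.3 CPM without LPS and 28.1, 28.2 and 29.7 CPM with it. KD had 27.9, 23.2 and 22.1 CPM without LPS and 20.5, 20.6 and 18.2 CPM with it. LPS thus went with higher IVD in scramble control, a log2 rise of 0.37 (standard error 0.093, adjusted p = 0.021 by edgeR's test), and in KD the log2 difference was -0.30 (standard error 0.13, adjusted p = 0.17). The call in scramble control was lost without scramble replicate 1 (adjusted p = 0.085), scramble replicate 2 (0.064) or scramble with LPS replicate 3 (0.081). KD against scramble was 0.13 without LPS (standard error 0.12, adjusted p = 0.46), with overlapping groups, and with LPS IVD fell by 0.54 (standard error 0.11, adjusted p = 0.0020), every KD library below every scramble library. The interaction was -0.66 on the log2 scale (standard error 0.15, adjusted p = 0.044), 1 member of 10, against 0.943% of 17173 genes called with a positive and 0.332% with a negative interaction. It was lost in 10 of 12 fits with 1 library left out (adjusted p of 0.026 to 0.13 over the 12), all but those without KD replicate 2 or KD replicate 3, and with the replicate block (adjusted p = 0.059). The median interaction of the members was -0.20, against 0.01 over all genes, and upper-quartile scaling changed the share of positive calls from 74% to 62.9%.

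Both subunits of 3-methylcrotonyl-CoA carboxylase, the biotin enzyme that follows IVD, were lower in KD with LPS, and without LPS the call was made for MCCC1 alone. MCCC1, the α subunit that carries biotin (chromosome 3, 183015218 to 183116075), had 20.4, 20.7 and 24.8 CPM in scramble libraries and 18.0, 15.7 and 13.6 CPM in KD. With LPS it had 23.1, 25.0 and 24.1 CPM in scramble libraries and 14.6, 14.2 and 16.2 CPM in KD. No KD library reached a scramble library, and MCCC1 fell by 0.48 on the log2 scale without LPS (standard error 0.13, adjusted p = 0.019 by edgeR's test) and by 0.69 with LPS (standard error 0.12, adjusted p = 0.00059). The first call was lost without scramble replicate 3 (adjusted p = 0.081) or KD replicate 3 (0.063) and with scaling by library size (0.051), and the second was kept in all 14 alternative fits.

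MCCC2, the β subunit (chromosome 5, 71579531 to 71658706), had 50.6, 49.3 and 50.6 CPM in scramble libraries and 48.9, 49.99 and 42.1 CPM in KD, overlapping, with a log2 difference of -0.09 (standard error 0.088, adjusted p = 0.50). With LPS it had 53.0, 53.97 and 54.04 CPM in scramble libraries and 42.3, 42.0 and 44.01 CPM in KD, and fell by 0.33 (standard error 0.085, adjusted p = 0.011). The interaction of MCCC2 did not pass the test (-0.23, standard error 0.12, adjusted p = 0.48). The ratio of MCCC1 to MCCC2 was lower in KD: it was 0.436 (geometric mean, range 0.402 to 0.490) in scramble control and 0.334 (0.313 to 0.367) in KD, and 0.448 (0.435 to 0.463) and 0.350 (0.337 to 0.368) with LPS. KD changed the log2 ratio by -0.37 (exact permutation test, p = 0.005, adjusted p = 0.017).

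PCCA had the largest fall among the 10 members in both KD comparisons. The gene (chromosome 13, 100089015 to 100530437) encodes the biotin-carrying α subunit of propionyl-CoA carboxylase. It had 16.8, 15.3 and 16.2 CPM in scramble libraries and 10.9, 9.60 and 9.23 CPM in KD. With LPS it had 18.9, 17.1 and 17.0 CPM in scramble libraries and 10.4, 10.1 and 10.5 CPM in KD. The groups were well apart, and PCCA fell by 0.70 on the log2 scale without LPS, to 0.616 of the scramble level (standard error 0.12, adjusted p = 0.0013 by edgeR's test), and by 0.78 with LPS, to 0.583 of it (standard error 0.13, adjusted p = 0.00049). These calls and those of BCKDHB were kept in all 14 alternative fits of each comparison. PCCA shares 274 exon bases with GGACT on the opposite strand. Its partner PCCB, the β subunit, was at 19.3 ± 1.83 CPM in scramble libraries and 17.8 ± 4.87 CPM in KD (log2 fold change -0.12, adjusted p = 0.68), and at 21.7 ± 0.968 and 17.6 ± 1.90 CPM with LPS (-0.31, adjusted p = 0.084). The ratio of PCCA to PCCB was 0.837 (0.791 to 0.868) in scramble control and 0.570 (0.473 to 0.694) in KD, and 0.813 (0.757 to 0.915) and 0.589 (0.510 to 0.643) with LPS, a log2 difference of -0.51 (exact permutation test, p = 0.005, adjusted p = 0.017).

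Adipocyte markers were lower in the same KD groups. Replicates 1, 2 and 3 of KD had summed adipocyte markers of 1880, 1420 and 641.9 CPM without LPS and of 1206, 833.2 and 519.4 CPM with LPS. With 3 libraries per group no correlation with the members was computed, and the part of adipocyte content in these differences was not tested.

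After LPS, 2 members were called in scramble control, DBT and IVD, both higher, and none at 2-fold, against 5.90% higher, 8.38% lower and 2.68% at 2-fold among 15920 genes. The median log2 fold change of the members was 0.16, against 0.02 over all genes. BCAT1 was at a log2 difference of 0.32 (standard error 0.11, adjusted p = 0.077 by edgeR's test), and 5 of 14 alternative fits called it, among them DESeq2 (adjusted p = 0.038) and the fit without scramble with LPS replicate 2 (0.0048). In KD, edgeR called 0 of 10 members after LPS and DESeq2 called 0, with 1 at an unadjusted p under 0.05 (IVD), against 5.32% higher, 6.03% lower and 2.25% at 2-fold among 16169 genes, and the median of the members was 0.01, as over all genes. With scaling by library size alone, the share of these calls that were higher fell from 46.9% to 35.2%.

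Beyond the members, 12 other enzymes of the 3 branches are given here. They are not the whole list, so their counts describe these 12 and give no direction for the pathway. Without LPS 0 were higher and 4 lower, and with LPS 0 were higher and 3 lower, with a median log2 fold change of -0.18 and -0.14 over the 12 (5 and 6 had an unadjusted p under 0.05 in either direction by edgeR's test, and DESeq2 called 4 and 3). Over all genes, 12.1% were higher and 15.1% lower without LPS, and 12.7% and 14.2% with LPS. ALDH6A1, the methylmalonate semialdehyde dehydrogenase of the valine branch, fell by 0.61 (adjusted p = 0.012 by edgeR's test) and by 0.83 with LPS (adjusted p = 7.2e-05), from 30.3 ± 1.83 to 17.0 ± 1.05 CPM with LPS (SD, n = 3). ACAT1, the mitochondrial thiolase, fell by 0.37 (adjusted p = 0.0076) and by 0.41 with LPS (adjusted p = 0.0058). HIBCH, which hydrolyses 3-hydroxyisobutyryl-CoA of valine, fell by 0.46 (adjusted p = 0.0100) and by 0.49 with LPS (adjusted p = 0.019). MMUT, the mutase that takes the propionate carbon on to succinyl-CoA, fell by 0.35 without LPS (adjusted p = 0.020), and with LPS it was at -0.22 (adjusted p = 0.094). Of these calls, ACAT1 in both comparisons and ALDH6A1 with LPS were kept in all alternative fits, and each of the others was lost when at least 1 library was left out. After LPS edgeR called 0 of the 12 in either arm, with 4 and 2 at an unadjusted p under 0.05 in scramble control and KD and 1 and 0 called by DESeq2. Over all genes, 5.90% were higher and 8.38% lower after LPS in scramble control, and 5.32% and 6.03% in KD.

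Among the pathway, regulator and transport genes given here, the largest KD differences were in transport across membranes. SLC7A5 and SLC3A2 encode the light and heavy chains of LAT1, the large neutral amino acid exchanger at the cell surface. SLC7A5 was at 54.3 ± 12.9 CPM in scramble libraries and 151 ± 7.78 CPM in KD, and at 37.3 ± 13.5 and 136 ± 11.3 CPM with LPS, a log2 rise of 1.48 without LPS (standard error 0.13, adjusted p = 7.7e-06 by edgeR's test) and 1.86 with LPS (standard error 0.20, adjusted p = 8.8e-06). SLC3A2 rose by 0.99 (adjusted p = 1.2e-06) and by 0.88 (adjusted p = 5.2e-06). SLC43A1 (LAT3) rose by 0.64 (adjusted p = 0.0024) and by 0.38 with LPS (adjusted p = 0.037, lost without 5 of the 6 libraries in turn). SLC25A44, the mitochondrial BCAA carrier, fell by 0.40 (adjusted p = 0.012, lost without scramble replicate 2 and with scaling by library size) and by 0.42 with LPS (adjusted p = 0.0085). With LPS, SLC7A8 (LAT2) and SLC43A2 (LAT4) also fell, by 0.71 (adjusted p = 6.6e-05) and by 0.63 (adjusted p = 0.021, lost without scramble with LPS replicate 2 or KD with LPS replicate 1 or 3), so that of the 6 transport genes 3 were higher and 1 lower without LPS and 3 higher and 3 lower with LPS. Beside these counts stand 12.1% of all genes higher and 15.1% lower without LPS, and 12.7% and 14.2% with LPS. They describe 6 genes with no test. SLC43A2 had the largest LPS difference of the 6 and rose by 2.32 in scramble control, from 3.04 ± 0.363 to 15.1 ± 3.36 CPM (standard error 0.19, adjusted p = 9.5e-06), and by 1.72 in KD, from 2.95 ± 0.779 to 9.70 ± 1.62 CPM (standard error 0.23, adjusted p = 0.00016). SLC43A1 (0.51, adjusted p = 0.020) and SLC7A8 (0.27, adjusted p = 0.046) also rose with LPS in scramble control, and both calls were lost with some single libraries left out. For the interaction edgeR called 0 of the 6 transport genes, with 1 at an unadjusted p under 0.05 and 0 called by DESeq2. Of all genes, 0.943% were called with a positive and 0.332% with a negative interaction.

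**Figure D4:**
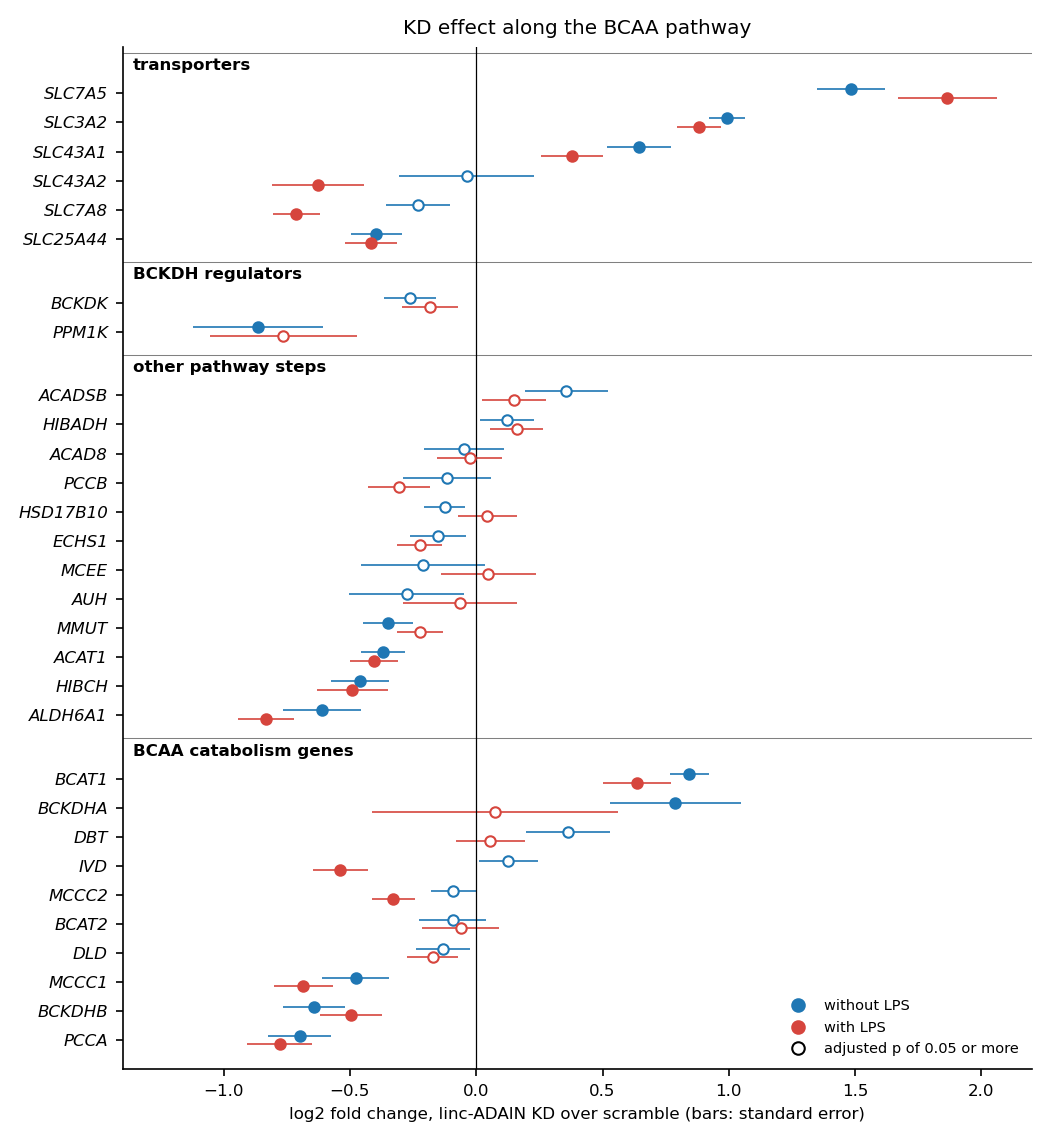
Log2 fold change of linc-ADAIN KD over scramble control (x axis, bars for standard errors) without LPS (blue) and with LPS (red) for the transporters, the regulators of BCKDH, the other enzymes of the pathway and the 10 members. Open circles have an adjusted p of 0.05 or more. SLC7A5 lies farthest to the right (1.48 and 1.86), and PPM1K, ALDH6A1 and PCCA lie farthest to the left.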

How the data were processed

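RNA was polyA-selected and libraries were made with a stranded mRNA kit. Estimated counts for each gene were deposited by the authors, who had run kallisto 0.44.0 on GRCh38 (per the labels' processing notes, which also name bcl2fastq 2.19 and DESeq2 1.32.0). The values are whole numbers that were not normalized. The annotation release is not given in the sources used here. Between 0.235% and 0.306% of the counts of a library were on a row without a name, which was left out of totals and tests. Intervals from replicates cover only the spread between libraries.

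In R 4.3.3 with edgeR 4.0.16, counts were rounded, genes under a total of 10 counts across the fitted libraries were removed, libraries were scaled by TMM, and the quasi-likelihood F test was applied to each comparison on its 6 libraries and to the interaction on all 12. The standard error is the size of the log2 fold change divided by the square root of F. Ratios of partner genes were tested by exact permutation within strata. The alternatives were other scalings (RLE, upper quartile, library size), no filter or filterByExpr, DESeq2 1.42.0, a block for the replicate number, a fit of all 12 libraries, and fits that leave out 1 library. The fits were tested on simulated data.

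The members and lists (pathway enzymes, BCKDH regulators, transport, biotin enzymes, complexes that share DLD, mitochondrial genes, and adipocyte, stromal, macrophage and endothelial markers) were chosen with earlier results of these data known. One item of the pathway list is not reported here, and the list's counts leave it out. Named genes were all members, BCKDK and PPM1K, other pathway, regulator and transport genes changed at least 2-fold or with the 2 smallest adjusted p per direction, and the 3 genes most like BCAT1. PCCB, MMUT and the transport, biotin, DLD-complex and mitochondrial genes named outside this rule were named after their values were seen. Positions are from GENCODE release 44, and promoter sequences from RefSeq.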

Additional observations from a re-analysis of the deposited data

Results flagged for a closer look

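The response of IVD to LPS differed between the arms: the interaction was -0.66 on the log2 scale (standard error 0.15, adjusted p = 0.044 by edgeR's test on all 12 libraries), with IVD at 22.4 ± 1.43 and 28.7 ± 0.890 CPM in scramble control without and with LPS and at 24.4 ± 3.12 and 19.8 ± 1.37 CPM in KD (SD, n = 3 libraries). All 3 LPS libraries of scramble control were above those without LPS, and all 3 LPS libraries of KD were below those without LPS. The interaction stayed negative, between -0.75 and -0.55, when any 1 library was left out, with an adjusted p from 0.026 to 0.13, and it was under 0.05 in 2 of these 12 fits, those without KD replicate 2 or KD replicate 3.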

How the results depend on the processing

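Of 50 member results, 43 stayed on their side of the threshold in every alternative fit and 7 changed side in at least 1 (24 weaker, 6 stronger over 750 fits). Of 100 results of other pathway, regulator and transport genes, 80 stayed on their side and 20 changed. No result reversed where the main or the alternative fit called it. Where neither fit called a result, its sign was not held to. For example, the log2 fold change of BCKDHA in KD with LPS ranged from -0.41 to 0.59 with 1 library left out. With 1 library left out in turn, called members numbered 3 to 5 in KD without LPS (3 without scramble replicate 3 or KD replicate 3), 6 in KD with LPS, 0 to 3 after LPS in scramble control (0 without scramble replicate 2 or scramble with LPS replicate 3, 1 without scramble replicate 1), 0 after LPS in KD, and 0 to 1 for the interaction, which also gave 0 with the replicate block. Calls over all genes ranged from 1187 to 2106 (main 2274) after LPS in scramble control, with 1187 without scramble replicate 2 and 1461 without scramble with LPS replicate 3, and from 92 to 243 (main 219) for the interaction, with 92 without scramble replicate 2, 131 without KD replicate 1, 136 without KD with LPS replicate 2 and 116 without KD with LPS replicate 3. The interaction called 431 genes with no filter on low counts and 475 with DESeq2. The difference of the log2 BCKDHA to BCKDHB ratio in KD ranged from 0.57 to 1.29. The cause of these changes was not tested beyond the fewer libraries.

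The replicate numbers were not used as pairs: the correlation of deviations between libraries of the same number was -0.0363 to 0.108, and libraries did not correlate best with their own number throughout. With the replicate block, the differences of the log2 ratios stayed as they were, 0.82 for BCAT1 to BCAT2, -0.37 for MCCC1 to MCCC2, -0.51 for PCCA to PCCB and 0.62 for BCKDK to PPM1K in KD, and -0.64 for BCKDK to PPM1K with LPS, each with an adjusted p of 0.0625 by the exact permutation test with fewer arrangements. Each of these ratios was at the smallest p that the fewer arrangements allow. The adjustment over 10 relations then left them above 0.05, so this setting could not decide whether the calls hold. In edgeR's test, the block also called BCAT1 after LPS in scramble control (adjusted p = 0.013).

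Depth limits the genes with few counts, PPM1K among them (64 to 309 counts per library), and 3 libraries per group allow no exact test of a single comparison under 0.05.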

Other observations

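MCCC1 and PCCA carry biotin, and 4 of 5 other genes of biotin use were also lower in both linc-ADAIN KD comparisons, against 15.1% of all genes lower without LPS and 14.2% with LPS, a description of 5 genes with no test. Pyruvate carboxylase (PC), which replenishes oxaloacetate, fell from 36.7 ± 3.92 to 12.7 ± 1.92 CPM without LPS (log2 fold change -1.54, standard error 0.13, adjusted p = 5.2e-06 by edgeR's test, SD over 3 libraries) and from 44.2 ± 4.82 to 12.2 ± 2.57 CPM with LPS (-1.85, adjusted p = 7.5e-07). The acetyl-CoA carboxylases ACACA and ACACB had log2 fold changes of -0.61 (adjusted p = 0.00015) and -1.37 (adjusted p = 0.0052) without LPS and of -0.93 (adjusted p = 8.7e-07) and -2.32 (adjusted p = 4.5e-06) with LPS. Biotinidase (BTD), which recycles biotin, fell by 0.57 (adjusted p = 0.0031) and by 0.69 (adjusted p = 0.0067). Holocarboxylase synthetase (HLCS), which attaches biotin to the carboxylases, was at -0.13 and -0.11 (adjusted p = 0.46 and 0.58). The adipocyte markers were lower in the same KD libraries, and their part in these differences was not tested.

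Of 6 genes of the complexes that share DLD, 2 were lower in both KD comparisons, beside the same shares of all genes. DLAT, the E2 core of pyruvate dehydrogenase, fell by 0.80 without LPS (adjusted p = 0.0016 by edgeR's test) and by 0.75 with LPS (adjusted p = 0.00024), and it was the 1 gene of the list called with LPS, at -0.56 in scramble control and -0.52 in KD. OGDH, the E1 of 2-oxoglutarate dehydrogenase, fell by 0.31 (adjusted p = 0.014) and by 0.53 (adjusted p = 0.00035). Of 6 mitochondrial genes, citrate synthase (CS) was lower in both KD comparisons (-0.29, adjusted p = 0.029, and -0.41, adjusted p = 0.0021) and TOMM20 with LPS (-0.28, adjusted p = 0.019), while VDAC1 was at 0.09 and 0.13 and TFAM at -0.01 and 0.01, which passed no test. HSPD1 (-0.15 and -0.21) and PPARGC1A (-0.21 and -1.11) passed no test either. Thus 1 of the 6 was lower without LPS and 2 with LPS, beside 15.1% and 14.2% of all genes, a description with no test.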
